A study of Mus musculus with 12 samples.

Results

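The iron handling genes Tfrc, Slc40a1, Fth1, Ftl1, Slc11a2, Hamp, Aco1, Ireb2, Ncoa4 and Slc39a14 were followed in mouse hearts after cisplatin (CDDP), with and without STING. They were 10 of the 55885 genes listed by the authors, matched by gene symbol, and were chosen for roles in the uptake, storage, export and sensing of iron. Tfrc was chosen by its measured TPM as well, since its level fell with cisplatin. Its change with cisplatin is therefore given as a description, with no p-value. Nothing is read from counts past the threshold that include this change. The study asked how loss of STING, an adaptor of the response to DNA in the cytosol, bears on the cardiac toxicity of cisplatin, a platinum drug used against tumors. RNA of cardiac tissues was sequenced in 3 hearts in each of 4 groups.

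The Saline group held male wild-type C57BL/6J mice without cisplatin, which the labels call untreated and the methods describe as given saline. CDDP mice were wild-type males injected with cisplatin intraperitoneally at 6 mg/kg on days 1, 8 and 15. The STING-/- group held males with both Tmem173 (Sting1) alleles disrupted and without cisplatin, and the STING-/-+CDDP group held such males on the same cisplatin schedule. All mice were 8 weeks old, and hearts were collected on day 22. Wild-type and STING-/- mice came from different suppliers and were not described as littermates, so genotype and source cannot be told apart. The labels number the hearts of each group and do not say in words that each came from its own mouse, so p-values measure the spread between these samples. Sting1, the targeted gene, was listed above 0 in every heart, with 12.3, 6.59 and 6.50 TPM in Saline, 22.1, 5.62 and 8.81 TPM in CDDP, 3.82, 5.96 and 2.87 TPM in STING-/- and 4.26, 4.67 and 3.37 TPM in STING-/-+CDDP. Hearts of STING-/- mice were thus lower without overlap in both comparisons of genotype, although neither difference passed the test (adjusted p = 1 and 0.147 by limma).

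Levels are given as TPM, a share of all transcripts in which the reads of a gene are first divided by its length and each heart has the same sum. The number of reads behind a value is unknown in this unit, and no counting interval can be given. Values in lists follow the heart numbers in the labels. Changes are log2 fold changes of TPM + 1 with their standard error (SE), and adjusted p-values are from limma with Benjamini-Hochberg adjustment over 13815 tested genes, with 0.05 as the threshold. Adding 1 understates the change of genes with low TPM. All 10 iron handling genes passed the filter of at least 1 TPM in at least 3 hearts. The labelled tissue was checked with 5 cardiomyocyte genes (Myh6, Tnnt2, Tnni3, Actc1 and Ryr2), which were above 0 in every heart with a summed level of 14632 to 32697 TPM. The lowest sum was that of the first CDDP heart. In CDDP against Saline 2 of the 5 changed, where 18.9% of all tested genes did, as Actc1, cardiac actin, fell by 3.55 on the log2 scale (SE 0.53, adjusted p = 0.00181 by limma), from 7824, 5559 and 5036 TPM to 187, 681 and 1067 TPM, and Tnnt2, cardiac troponin T, rose by 0.56 (SE 0.13, adjusted p = 0.0137). In the other comparisons none of the 5 passed, and their part in the changes of the iron genes was not tested.

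Cells take up iron bound to transferrin through the transferrin receptor, encoded by Tfrc, while Slc11a2 (DMT1) moves ferrous iron out of the endosome and Slc39a14 (ZIP14) carries iron that is not bound to transferrin. Ferritin, a shell of heavy chains (Fth1) and light chains (Ftl1), stores iron, and Ncoa4 brings ferritin to the lysosome, where the iron is released. Ferroportin (Slc40a1) exports iron, and hepcidin (Hamp), a peptide hormone made mainly by the liver and also by the heart, causes ferroportin to be degraded. Aco1 and Ireb2 encode the iron regulatory proteins. When iron is scarce, these bind hairpins known as iron-responsive elements, which blocks translation where the hairpin is in the 5′ UTR of ferritin or ferroportin mRNA and protects the mRNA from decay where the hairpins are in the 3′ UTR of Tfrc. In the heart, iron serves the respiratory chain, heme enzymes and myoglobin. In the pathway annotation deposited with the values, Tfrc, Slc40a1, Fth1, Ftl1, Slc11a2, Ncoa4 and Slc39a14 belong to the KEGG pathway Ferroptosis, a form of cell death that depends on iron.

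The hairpins of the members are shown because they tie uptake, storage and export to the same sensors. UTRs of protein-coding transcripts (GENCODE M21, GRCm38) were searched on the transcript strand for CNNNNNCAGTGN in which the 5 bases between the bulged C and the loop can pair with those after the loop, G with T pairs included. Such a match was found in the 5′ UTR of 31 of 20916 genes (0.148%) and in the 3′ UTR of 129 of 21045 genes (0.613%), whereas the letters alone were found in 12.2% and 35.9%. Of the 10 members, 4 held a match, namely Fth1, Ftl1 and Slc40a1 in the 5′ UTR and Tfrc in the 3′ UTR, and 6 did not (Slc11a2, Hamp, Aco1, Ireb2, Ncoa4 and Slc39a14). A match is a description of the sequence, and the absence of one says only that these letters with a paired stem are not in the annotated UTRs. Capitals mark the bulged C and the 6 bases of the loop, and each line is the transcript strand, 5′ to 3′.
Fth1 5′ UTR (chr19:9982732-9982760, plus strand): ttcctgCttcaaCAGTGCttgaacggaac
Ftl1 5′ UTR (chr7:45459779-45459807, minus strand): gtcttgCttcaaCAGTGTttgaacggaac
Slc40a1 5′ UTR (chr1:45925465-45925493, minus strand): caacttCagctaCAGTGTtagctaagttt
Tfrc 3′ UTR, site 1 (chr16:32631219-32631247, plus strand): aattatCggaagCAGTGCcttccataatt
Tfrc 3′ UTR, site 2 (chr16:32631598-32631626, plus strand): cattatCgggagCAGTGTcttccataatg
Tfrc 3′ UTR, site 3 (chr16:32631663-32631691, plus strand): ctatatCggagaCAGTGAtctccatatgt
Tfrc 3′ UTR, site 4 (chr16:32631710-32631738, plus strand): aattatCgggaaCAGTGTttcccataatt

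The 4 Tfrc sites all lie in exon 19 of 19, the last exon. The heavy and light ferritin chains have the same upper stem, while each of the Tfrc sites has a stem of its own. Among the wider list of iron genes described further on, Alas2 held a match in the 5′ UTR and Bola3 in the 3′ UTR.

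Tfrc, the receptor for transferrin-bound iron (ENSMUSG00000022797, GRCm38 chromosome 16 from 32608920 to 32632794), was low in every heart of a cisplatin-treated mouse. Its level was 58.7, 10.97 and 17.9 TPM in the Saline hearts and 2.68, 1.28 and 2.89 TPM in the CDDP hearts. In mice without STING it was 14.6, 20.2 and 43.6 TPM without cisplatin and 1.89, 2.08 and 1.70 TPM with it. All 6 hearts with cisplatin were at or below 2.89 TPM and all 6 without it at or above 10.97 TPM, so the treatments did not overlap in either genotype. The group means were 29.2 ± 25.8 TPM in Saline, 2.28 ± 0.875 in CDDP, 26.1 ± 15.4 in STING-/- and 1.89 ± 0.190 in STING-/-+CDDP (SD, n = 3). The log2 fold change was -2.90 (SE 0.52), or 7.45-fold lower, in CDDP against Saline, and -3.09 (SE 0.52), or 8.495-fold lower, in STING-/-+CDDP against STING-/-. Without the first Saline heart, the highest in Tfrc, the former was -2.23, and it ran from -3.39 to -2.23 with a heart left out.

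For Tfrc no difference by genotype passed the test. The log2 difference between STING-/-+CDDP and CDDP hearts was -0.15 (SE 0.52, adjusted p = 0.912 by limma), and between STING-/- and Saline hearts it was 0.04 (SE 0.52, adjusted p = 1). The difference between the changes with cisplatin in the 2 genotypes (the interaction) was -0.19 with an SE of 0.73 (adjusted p = 0.943). Missing the threshold does not show that the levels were alike, since an estimate can be off by more than its SE in either direction. CDDP against Saline and STING-/-+CDDP against CDDP share the CDDP hearts, and CDDP against Saline and STING-/- against Saline share the Saline hearts, so the comparisons of each of these pairs are not independent of each other. Among all 55885 listed genes, tested or not, the order of Tfrc by TPM within a heart was between 1366 and 6275 without cisplatin. With cisplatin it was between 10098 and 12086.

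**Figure D1:**
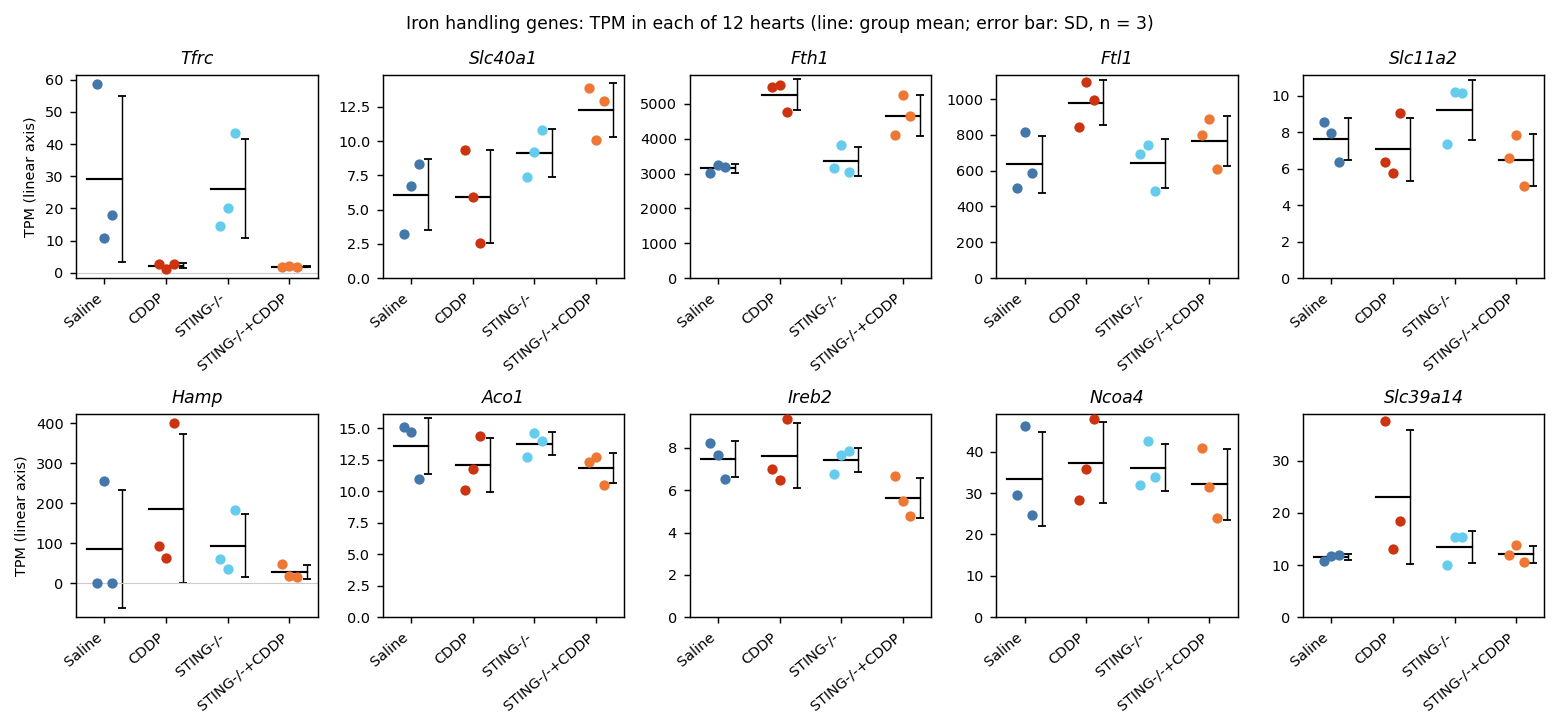
TPM of the 10 iron handling genes (linear axes, each gene on its own scale) in the 3 hearts of each of the 4 groups, with points for hearts, a horizontal line for the group mean and a bar for its SD. Tfrc is at or below 2.89 TPM in all 6 hearts with cisplatin, Fth1 is at or above 4101 TPM in the same hearts, and Hamp spreads from 0.28 to 401 TPM; the lower SD bar of Hamp in Saline runs below 0 because 1 heart is far above the other 2.

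Tfrc is also abundant in young red blood cells, so markers of red blood cells are given beside it. The summed level of the 8 red blood cell markers in the table (of 9 listed, among them the hemoglobin genes) was 6823, 4150 and 9326 TPM in the Saline hearts and 1272, 141 and 42.3 TPM in the CDDP hearts. In STING-/- hearts it was 1267, 1467 and 264 TPM and in STING-/-+CDDP hearts 101, 82.3 and 312 TPM. The most abundant was Hbb-bs, or Hba-a2 in the third CDDP heart, and the membrane protein Slc4a1 was listed at 0 in 5 hearts, namely the third CDDP heart, all but the second STING-/- heart and all but the third STING-/-+CDDP heart. All 6 markers tested fell in CDDP against Saline, Hbb-bs by 5.12 on the log2 scale (SE 1.09, adjusted p = 0.00909 by limma) as 1 of them, where 10.4% of all tested genes fell. In STING-/-+CDDP against STING-/- 0 of these 6 passed and 1 was lower without overlap, beside 16.9% of all tested genes. In STING-/- against Saline 0 passed and all 6 were lower without overlap, beside 4.88%. The part of these markers in the change of Tfrc was not tested. In bulk tissue, fewer cells of a type and less RNA per cell cannot be told apart.

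Markers of macrophages, which recycle the iron of red blood cells, were lower with cisplatin as well. The summed level of 8 such markers was 273, 448 and 310 TPM in Saline, 112, 210 and 209 TPM in CDDP, 452, 385 and 317 TPM in STING-/- and 246, 265 and 119 TPM in STING-/-+CDDP hearts. All hearts with cisplatin were below all hearts without it. In CDDP against Saline 5 of the 8 fell (Adgre1, Csf1r, Mrc1, C1qa and Fcgr1), and in STING-/-+CDDP against STING-/- 2 of the 8 fell (Mrc1 and Fcgr1), where 10.4% and 0.68% of all tested genes fell. Lyve1 had a log2 fold change of 0.59 in the former, which did not pass (adjusted p = 0.540 by limma). The most abundant of them in every heart was C1qa, a complement component, and none was at 0. Their part in the change of Tfrc was not tested.

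**Figure D2:**
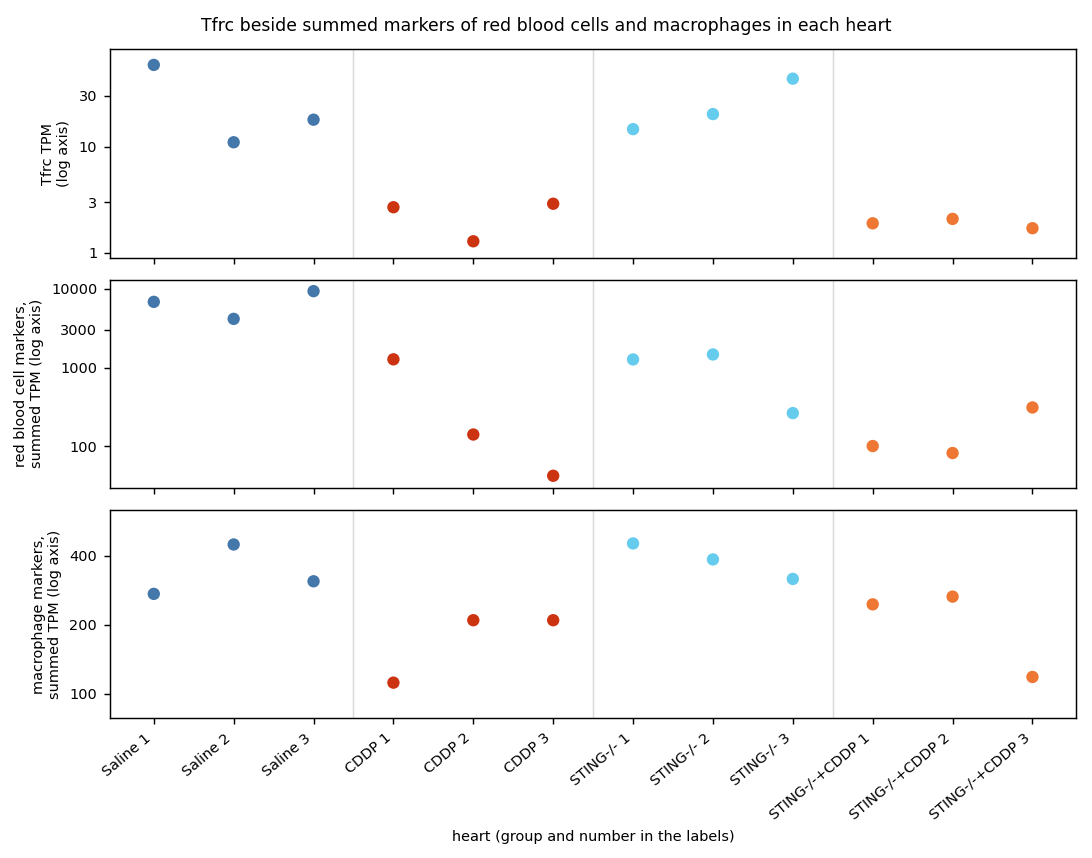
TPM of Tfrc (top), summed TPM of 8 red blood cell markers (middle) and summed TPM of 8 macrophage markers (bottom) on log axes, 1 point for each of the 12 hearts. Tfrc and the macrophage markers are separated by cisplatin in both genotypes, while the red blood cell sums of the STING-/- hearts (264 to 1467 TPM) overlap those with cisplatin (42.3 to 1272 TPM).

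The genes whose pattern over the 12 hearts was most like that of Tfrc, by Pearson's r of log2(TPM + 1) over all tested genes, were Slc35g1 (r = 0.974), Pdss1 (0.964), Ppp1r14c (0.957), Cx3cr1 (0.953) and Mrps22 (0.945). The 12 hearts fall into groups with and without cisplatin, so these values describe the shared separation by treatment. Slc35g1 was low in every heart, between 0.66 and 1.19 TPM without cisplatin and between 0.31 and 0.49 TPM with it. It passed the filter only through hearts without cisplatin. Ppp1r14c, which encodes an inhibitor of protein phosphatase 1, was between 58.5 and 104 TPM without cisplatin and between 22.3 and 37.6 TPM with it. Cx3cr1, a chemokine receptor of macrophages and monocytes, was between 2.47 and 7.01 TPM without cisplatin and between 0.09 and 0.47 TPM with it. Mrps22, a protein of the mitochondrial ribosome, was between 18.4 and 23.2 TPM without cisplatin and between 11.5 and 13.96 TPM with it.

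Slc11a2 and Slc39a14, the other members that carry iron into the cell or across the endosome, were steadier than Tfrc in most hearts. Slc11a2 (DMT1, ENSMUSG00000023030, chromosome 15 from 100387898 to 100425072) was at 8.57, 7.96 and 6.35 TPM in Saline and 6.37, 5.77 and 9.04 TPM in CDDP hearts. It was at 7.34, 10.2 and 10.1 TPM in STING-/- and 6.56, 7.85 and 5.03 TPM in STING-/-+CDDP hearts. The locus Gm5475 overlaps it on the other strand, and their reads cannot be told apart without strand. The groups overlapped in each comparison, and the log2 fold change was -0.11 (SE 0.21) in CDDP against Saline and -0.46 (SE 0.21, adjusted p = 0.371 by limma, -0.60 to -0.31 with a heart left out) in STING-/-+CDDP against STING-/-.

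Slc39a14 (ZIP14, ENSMUSG00000022094, chromosome 14 from 70303469 to 70351425), also known as a gene of the acute phase response, stood out in the first CDDP heart. Its level was 10.9, 11.8 and 11.9 TPM in Saline and 37.6, 13.1 and 18.5 TPM in CDDP hearts, so all CDDP hearts were higher. Without STING it was 10.0, 15.3 and 15.4 TPM without cisplatin and 11.9, 13.8 and 10.5 TPM with it, and these groups overlapped. The log2 fold change was 0.81 (SE 0.30) in CDDP against Saline and 0.41 without the first CDDP heart. Between STING-/-+CDDP and CDDP hearts it was -0.76 (SE 0.30, adjusted p = 0.198 by limma), and -0.35 without the same heart. The interaction was -0.95 (SE 0.43, adjusted p = 0.421), and -0.54 without the first CDDP heart.

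The first CDDP heart also held most of the neutrophil markers. The summed level of 6 such markers was 31.2, 6.43 and 8.62 TPM in Saline, 1089, 42.8 and 26.0 TPM in CDDP, 14.7, 84.8 and 3.50 TPM in STING-/- and 47.3, 39.6 and 36.2 TPM in STING-/-+CDDP hearts. S100a9, a calcium-binding protein of neutrophils, was the most abundant in every heart, with 547 TPM in the first CDDP heart, and Mpo was listed at 0 in 9 hearts and Ly6g in 5. Their part in the level of Slc39a14 was not tested.

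Ferritin mRNA was abundant, and that of the heavy chain was higher in every heart with cisplatin than in any without it. Fth1 (heavy chain, ENSMUSG00000024661, chromosome 19 from 9980598 to 9985098) was at 3013, 3242 and 3181 TPM in Saline and 5494, 5547 and 4769 TPM in CDDP hearts. It was at 3172, 3834 and 3036 TPM in STING-/- and 4101, 5254 and 4642 TPM in STING-/-+CDDP hearts. By TPM Fth1 was between the 19th and the 31st most abundant gene in every heart. Its log2 fold change was 0.74 (SE 0.13), or 1.67-fold higher, in CDDP against Saline, and 0.48 (SE 0.13, adjusted p = 0.109 by limma), or 1.39-fold higher, in STING-/-+CDDP against STING-/-. The latter did not pass the test, although the 2 groups did not overlap, as for 7.28% of all tested genes that were higher in this comparison. The difference between the genotypes under cisplatin was -0.18 (SE 0.13, adjusted p = 0.457), and the interaction was -0.26 (SE 0.18, adjusted p = 0.584). With a heart left out these ran from -0.27 to -0.09 and from -0.35 to -0.16.

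Ftl1 (light chain, ENSMUSG00000050708, chromosome 7 from 45457944 to 45459884) was at 505, 815 and 587 TPM in Saline and 846, 1097 and 997 TPM in CDDP hearts. Without STING it was at 691, 746 and 488 TPM without cisplatin and 798, 888 and 611 TPM with it. All CDDP hearts were above all Saline hearts, whereas the STING-/- and STING-/-+CDDP hearts overlapped. Its log2 fold change was 0.64 (SE 0.22) in CDDP against Saline, 0.26 (SE 0.22, adjusted p = 0.644 by limma, 0.076 to 0.42 with a heart left out) in STING-/-+CDDP against STING-/-, and -0.36 (SE 0.22, adjusted p = 0.376) in STING-/-+CDDP against CDDP, or -0.21 without the third STING-/-+CDDP heart. Ftl1 overlaps the annotated loci Gm10252 on the other strand and Gm22133 on the same strand, and whether the counting used strand is not given in the sources used here. Pseudogenes of the light chain held at most 2.5 TPM in a heart and those of the heavy chain at most 0.20 TPM.

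With both chains added, ferritin stood at 3518, 4057 and 3768 TPM in Saline and 6340, 6644 and 5766 TPM in CDDP hearts. It stood at 3863, 4579 and 3523 TPM in STING-/- and 4899, 6142 and 5254 TPM in STING-/-+CDDP hearts, without overlap by treatment in either genotype. There were 3.98 to 7.59 heavy-chain transcripts for each light-chain transcript, and the ratio overlapped between all groups. Ferritin levels are set largely at translation through the hairpins shown above, and ferritin protein was not analysed here.

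Ncoa4, the receptor that takes ferritin to the lysosome (ENSMUSG00000056234, chromosome 14 from 32159865 to 32179855), was at 29.5, 46.1 and 24.7 TPM in Saline and 28.4, 35.7 and 47.8 TPM in CDDP hearts. It was at 31.9, 42.6 and 33.9 TPM in STING-/- and 41.0, 31.4 and 24.0 TPM in STING-/-+CDDP hearts. The groups overlapped in all comparisons. The log2 fold changes lay between -0.21 (SE 0.27, adjusted p = 0.706 by limma), in STING-/-+CDDP against CDDP, and 0.17 (SE 0.27), in CDDP against Saline. With a heart left out the former ran from -0.40 to -0.021 and the latter from -0.019 to 0.42.

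Slc40a1 (ferroportin, ENSMUSG00000025993, chromosome 1 from 45908068 to 45926523), the exporter of iron, was high in the STING-/-+CDDP hearts. Its level was 3.23, 6.71 and 8.30 TPM in Saline, 9.33, 5.92 and 2.54 TPM in CDDP, 7.36, 9.24 and 10.8 TPM in STING-/- and 13.9, 10.1 and 12.9 TPM in STING-/-+CDDP hearts. All STING-/-+CDDP hearts were above all CDDP hearts, as for 7.12% of all tested genes that were higher in this comparison, while the Saline and STING-/- hearts overlapped. The log2 difference between STING-/-+CDDP and CDDP was 1.06 (SE 0.37, unadjusted p = 0.0148 and adjusted p = 0.153 by limma), and 0.64 without the third CDDP heart. It was 0.58 (SE 0.37, adjusted p = 1) between STING-/- and Saline hearts (0.25 without the first Saline heart), -0.09 (SE 0.37) for CDDP against Saline and 0.39 (SE 0.37, adjusted p = 0.695, and 0.26 without the first STING-/- heart) for STING-/-+CDDP against STING-/-. Mean levels thus ran from 5.93 ± 3.40 TPM in CDDP and 6.08 ± 2.59 in Saline over 9.14 ± 1.73 in STING-/- to 12.3 ± 1.99 in STING-/-+CDDP (SD, n = 3), and none of these comparisons passed the test after adjustment.

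The annotated genes most like Slc40a1 over the 12 hearts were Strit1 (r = 0.813), which encodes a small protein that raises calcium uptake into the sarcoplasmic reticulum, Nudt7 (0.809), an enzyme of peroxisomes, and Plbd1 (0.797). They ranked after a pair of loci that the authors assembled and that carry no symbol (r = 0.849 and 0.840). Strit1 was at 96.0, 122 and 96.2 TPM in the STING-/-+CDDP hearts and at or below 69.3 TPM in every other heart.

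Hamp (hepcidin, ENSMUSG00000050440, chromosome 7 from 30942368 to 30944032) varied most of the 10 members. It was at 0.35, 256 and 0.28 TPM in Saline and 93.9, 64.5 and 401 TPM in CDDP hearts. In mice without STING it was at 60.6, 36.4 and 183 TPM without cisplatin and 48.8, 19.3 and 15.9 TPM with it. Only 2 hearts, the first and the third of the Saline group, were below 15.9 TPM, and the second Saline heart was the second highest of all 12. The log2 fold change was 4.15 (SE 1.64) in CDDP against Saline, 6.69 without the second Saline heart and 2.87 without the third. It was -1.54 (SE 1.64, adjusted p = 0.736 by limma) in STING-/-+CDDP against STING-/-, where the groups overlapped, and -2.40 (SE 1.64, adjusted p = 0.449) in STING-/-+CDDP against CDDP, where all STING-/-+CDDP hearts were lower. STING-/- against Saline gave 3.30 (SE 1.64, adjusted p = 1), and 5.84 (adjusted p = 0.0255) without the second Saline heart, but 2.05 without the first and 2.01 without the third. The -1.54 of STING-/-+CDDP against STING-/- was -0.90 without the third STING-/- heart. The interaction was -5.70 (SE 2.32, adjusted p = 0.391).

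Transcripts of atrial muscle also differed widely between hearts and are given beside Hamp. The summed level of the 4 atrial genes Nppa, Myl7, Myl4 and Sln was 310, 38939 and 339 TPM in the Saline hearts and 3793, 854 and 14621 TPM in the CDDP hearts. It was 2994, 12835 and 8861 TPM in STING-/- hearts and 9025, 902 and 331 TPM in STING-/-+CDDP hearts. Nppa, the atrial natriuretic peptide, was the most abundant in every heart, and no atrial gene was at 0. Myl7, the atrial myosin light chain, was at 5.68 and 2.48 TPM in the first and the third Saline hearts and at 6537 TPM in the second, and the same 2 hearts had the lowest Hamp. The third STING-/-+CDDP heart had as little summed atrial RNA as those 2 hearts, with 46.4 TPM of Myl7 and 15.9 TPM of Hamp. Within the STING-/- group the second heart had the highest atrial sum and the lowest Hamp. With a covariate for the atrial genes in the model, chosen after the values had been seen, the log2 fold change of Hamp was 2.24 in CDDP against Saline, 0.75 in STING-/- against Saline, -0.11 in STING-/-+CDDP against STING-/-, -1.60 in STING-/-+CDDP against CDDP and -2.35 for the interaction. The part of atrial tissue in the level of Hamp was not tested. The locus Gm44662 overlaps Hamp on the other strand, and reads of the 2 cannot be told apart without strand.

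**Figure D3:**
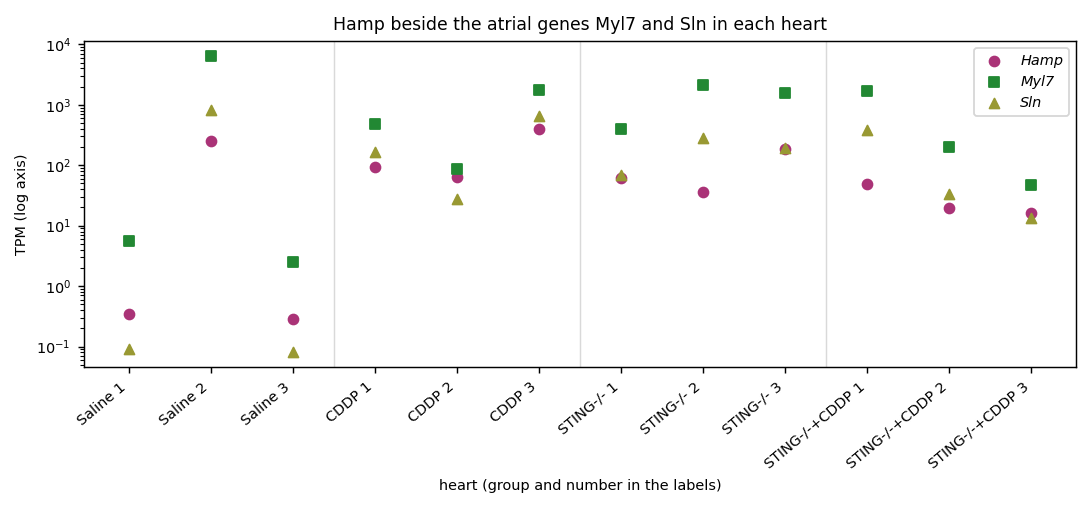
TPM of Hamp (circles) and of the atrial genes Myl7 (squares) and Sln (triangles) on a log axis in each of the 12 hearts. The first and the third Saline hearts, with Hamp at 0.35 and 0.28 TPM, are also those with the lowest Myl7 and Sln.

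The genes of the iron regulatory proteins showed small differences. Aco1 (ENSMUSG00000028405, chromosome 4 from 40143081 to 40198338), which encodes the protein that is also cytosolic aconitase, was at 15.1, 14.7 and 11.02 TPM in Saline and 10.1, 11.8 and 14.4 TPM in CDDP hearts. It was at 12.8, 14.6 and 14.03 TPM in STING-/- and 12.3, 12.8 and 10.5 TPM in STING-/-+CDDP hearts. The first of these pairs overlapped, and in the second all hearts with cisplatin were lower, by a small margin. For Aco1 the log2 fold change was -0.16 (SE 0.17) in CDDP against Saline and -0.21 (SE 0.17, adjusted p = 0.642 by limma, -0.26 to -0.13 with a heart left out) in STING-/-+CDDP against STING-/-.

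Ireb2 (ENSMUSG00000032293, chromosome 9 from 54863789 to 54912530), whose protein is removed when iron is plentiful, was at 8.21, 7.67 and 6.55 TPM in Saline and 7.02, 6.49 and 9.37 TPM in CDDP hearts. It was at 6.76, 7.65 and 7.85 TPM in STING-/- and 6.65, 5.49 and 4.77 TPM in STING-/-+CDDP hearts. As with Aco1, the wild-type hearts overlapped and the hearts without STING were separated by cisplatin, at lower levels with the drug. Of all tested genes 16.9% were lower without overlap in STING-/-+CDDP against STING-/-, whether or not they also separated in wild-type mice. The log2 fold change there was -0.35 (SE 0.17, adjusted p = 0.401 by limma, -0.46 to -0.25 with a heart left out), against 0.02 (SE 0.17) in CDDP against Saline, and the interaction was -0.37 (SE 0.24, adjusted p = 0.575), or -0.23 without the third CDDP heart.

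Counted over all 10 members, Fth1 was higher and Tfrc lower past the threshold in CDDP against Saline, 2 of 10, where 18.9% of all tested genes passed, 8.52% higher and 10.4% lower. Since the members were chosen with this comparison in view, and Tfrc for its fall in it, nothing is read from that count. Without the second Saline heart it was 4, with Ftl1 and Hamp in addition. In STING-/-+CDDP against STING-/- the member past the threshold was Tfrc, 1 of 10 beside 0.934% of all genes (0.253% higher and 0.68% lower), and Tfrc was chosen for its fall with cisplatin, so nothing is read from this count either. None of the members passed in STING-/-+CDDP against CDDP (1.22% of all genes, 0.362% higher and 0.854% lower), in STING-/- against Saline (0.0724%, 0.029% higher and 0.0434% lower) or for the interaction (0.00724%). At an unadjusted p under 0.05 the members were 2, Slc40a1 and Slc39a14, in the first of these, 0 in the second and 2, Hamp and Slc39a14, in the third, where 19.8%, 3.69% and 11.7% of all tested genes were under it. The median log2 fold change of the members was 0.09 in CDDP against Saline and -0.20 in STING-/-+CDDP against STING-/-, where the medians over all tested genes were -0.0032 and -0.11. In STING-/-+CDDP against CDDP it was -0.20, against -0.09 over all genes.

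Groups without overlap are common in these data, so the members are set beside all tested genes here too. In CDDP against Saline 3 members were higher without overlap (Fth1, Ftl1 and Slc39a14) and 1 lower (Tfrc), beside 14.9% and 17.1% of all tested genes. In STING-/-+CDDP against STING-/- 1 was higher (Fth1) and 3 lower (Tfrc, Aco1 and Ireb2), beside 7.28% and 16.9%. Between STING-/-+CDDP and CDDP hearts 1 was higher (Slc40a1) and 1 lower (Hamp), beside 7.12% and 15.6%. Saline and STING-/- hearts overlapped for all 10 members, where 2.76% of all tested genes were higher and 4.88% lower without overlap.

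**Figure D4:**
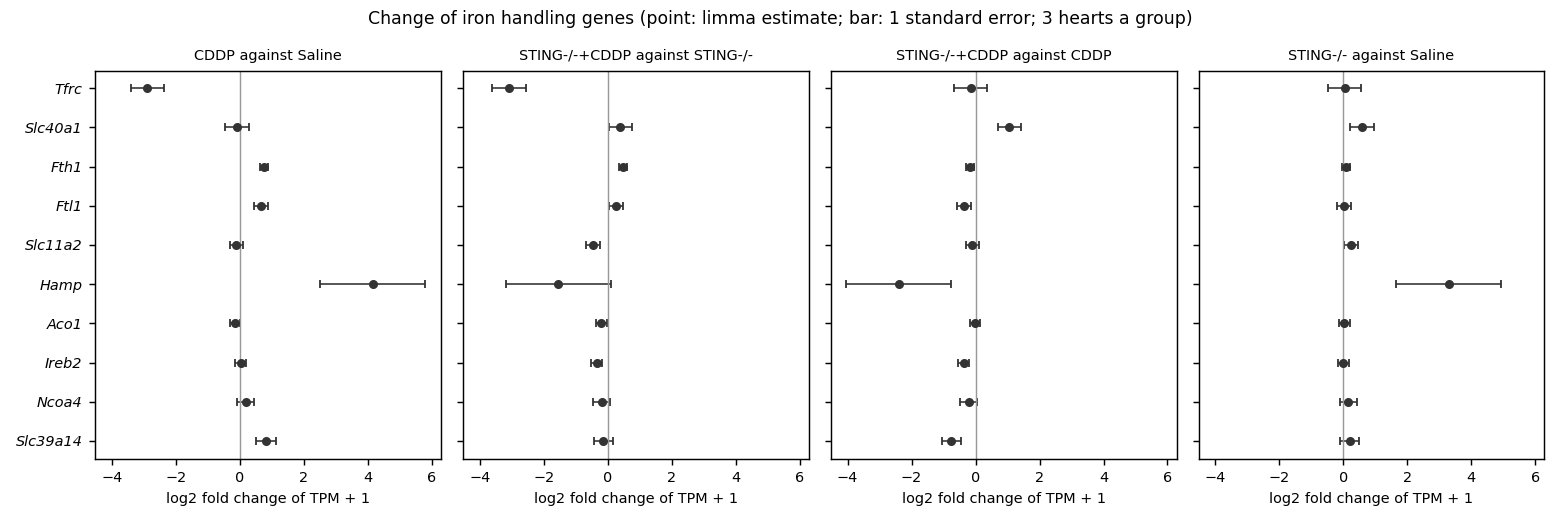
Log2 fold change of TPM + 1 (points) with 1 SE (bars) for the 10 iron handling genes in 4 comparisons of 3 hearts with 3, on a common axis. Tfrc is at -2.90 and -3.09 in the comparisons by cisplatin and near 0 in those by genotype, and the bars of Hamp are the widest, with an SE of 1.64.

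The other genes of iron and heme were taken as a wider list of 81 genes. They fall into 6 groups, apart from 4 genes, among them Epas1, Cdc14a and Cdc42bpa, that were listed as mRNAs known to carry an iron-responsive element. In all 73 were tested. In CDDP against Saline 7 rose, 11 fell and 55 did not pass, so that 24.7% passed beside 18.9% of all tested genes, with a median log2 fold change of -0.08. The count was 9 without the first Saline heart, 5 when only the CDDP and Saline hearts were fitted and 24 when the hearts were scaled by the median of ratios. In STING-/-+CDDP against STING-/- 1 fell (Alas1), in STING-/-+CDDP against CDDP 1 rose (Hjv), each beside 72 that did not pass. That is 1.4% of the list in both, where 0.934% and 1.22% of all tested genes passed. In STING-/- against Saline and for the interaction 0 passed by limma, with 2 and 8 of the 73 at an unadjusted p under 0.05, beside 3.69% and 11.7% of all tested genes.

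Of the 6 groups, heme synthesis held the largest number of genes that fell. Of its 13 genes, all tested, 5 fell with CDDP (Alas1, Alas2, Uros, Abcb10 and Tmem14c), 2 rose (Slc25a38 and Clpx) and 6 did not pass, with a median log2 fold change of -0.35. Alas1, the first and rate-limiting enzyme of heme synthesis in most tissues (chromosome 9 from 106233455 to 106248654), was at 312, 179 and 229 TPM in Saline and 74.3, 106 and 105 TPM in CDDP hearts. It was at 229, 283 and 399 TPM in STING-/- and 74.4, 129 and 84.3 TPM in STING-/-+CDDP hearts. All hearts with cisplatin were below all without it, and the log2 fold change was -1.31 (SE 0.27, adjusted p = 0.00818 by limma) in wild-type mice and -1.66 (SE 0.27, adjusted p = 0.0232) in mice without STING. The interaction was -0.35 (SE 0.39, adjusted p = 0.758). Alas1 in STING-/-+CDDP against STING-/- missed the threshold when any of the hearts compared other than the second STING-/-+CDDP heart was left out, with an adjusted p of up to 0.106.

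Alas2, the form of the same enzyme in developing red blood cells and 1 of the red blood cell markers above (chromosome X from 150547375 to 150570638), was at 18.3, 12.8 and 27.8 TPM in Saline hearts and at 0.79, 0.56 and 0 TPM in CDDP hearts. It was at 3.93, 3.91 and 0.49 TPM in STING-/- and 0.20, 0.40 and 1.10 TPM in STING-/-+CDDP hearts. The Saline hearts stood above all others. In CDDP against Saline, Alas2 fell by 3.81 on the log2 scale (SE 0.45, adjusted p = 0.000802 by limma), and was at -2.58 (SE 0.45, adjusted p = 0.10) in STING-/- against Saline. The sums of the red blood cell markers given above moved the same way, and their part in this result was not tested.

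In the breakdown and scavenging of heme, 2 of 9 tested genes rose in CDDP against Saline, Hmox1 and Hp, and none fell. Hmox1, heme oxygenase, which frees iron from heme (chromosome 8 from 75093621 to 75100589), was at 10.5, 20.3 and 14.4 TPM in Saline and 101, 40.1 and 35.4 TPM in CDDP hearts. It was at 17.8, 27.2 and 16.8 TPM in STING-/- and 29.3, 37.0 and 22.4 TPM in STING-/-+CDDP hearts. All CDDP hearts were above all Saline hearts, and the first CDDP heart was the highest. Hmox1 had a log2 fold change in CDDP against Saline of 1.78 (SE 0.37, adjusted p = 0.00849 by limma), 1.31 without the first CDDP heart, and 0.50 (SE 0.37, adjusted p = 0.603) in STING-/-+CDDP against STING-/-. The interaction was -1.28 (SE 0.53, unadjusted p = 0.0332 and adjusted p = 0.391).

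Hp, haptoglobin, which binds free hemoglobin, was at 1.12, 17.5 and 0.92 TPM in Saline and 43.4, 13.2 and 31.9 TPM in CDDP hearts, and these overlapped through the second Saline heart. It rose by the test (log2 fold change 2.70, SE 0.83, adjusted p = 0.0429 by limma). Cp, ceruloplasmin, a ferroxidase that loads iron onto transferrin, was at 26.8, 78.4 and 48.9 TPM in Saline and 93.5, 76.3 and 153 TPM in CDDP hearts, overlapping in the same way (1.12, SE 0.36, adjusted p = 0.0480, and 0.72 without the first Saline heart), and was the 1 gene of 5 tested in storage and ferritin turnover that passed. Hp was at 27.4, 87.5 and 15.1 TPM in STING-/- and 20.3, 20.3 and 35.8 TPM in STING-/-+CDDP hearts (-0.42, SE 0.83, adjusted p = 0.866), and Cp was at 55.7, 86.2 and 54.7 TPM in STING-/- and 76.4, 69.8 and 57.3 TPM in STING-/-+CDDP hearts (0.071, SE 0.36, adjusted p = 0.958). The interaction was -3.13 (SE 1.18, adjusted p = 0.377) for Hp and -1.05 (SE 0.50, adjusted p = 0.446) for Cp. The rise in CDDP against Saline missed the threshold in 12 of 21 alternative settings for Hp and in 14 of 21 for Cp, among them the fit without the filter, the fit of only the groups compared, the atrial covariate, the first or the third heart of Saline or CDDP left out, and each STING-/-+CDDP heart left out, with adjusted p-values of up to 0.150 for Hp and 0.171 for Cp.

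Among the genes of hepcidin control and iron sensing, Hfe rose and Hjv fell in CDDP against Saline, and 9 of the 11 tested did not pass. Hjv, hemojuvelin, a co-receptor for bone morphogenetic proteins that is abundant in muscle (chromosome 3 from 96525172 to 96529210), was at 111, 121 and 103 TPM in Saline and 56.7, 53.6 and 57.7 TPM in CDDP hearts. It was at 96.8, 118 and 138 TPM in STING-/- and 121, 108 and 99.1 TPM in STING-/-+CDDP hearts. The CDDP hearts were the lowest of all 12, and the other 3 groups overlapped. Hjv fell by 0.98 on the log2 scale (SE 0.14, adjusted p = 0.00159 by limma) in CDDP against Saline, and was 0.95 higher (SE 0.14, adjusted p = 0.0188) in STING-/-+CDDP against CDDP, which rests on the same CDDP hearts. The log2 fold change was -0.09 (SE 0.14, adjusted p = 0.827) in STING-/-+CDDP against STING-/-, and the interaction was 0.89 (SE 0.20, unadjusted p = 0.000951 and adjusted p = 0.286). With a single STING-/-+CDDP heart left out, the difference between the genotypes under cisplatin missed the threshold each time (adjusted p of up to 0.0769).

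Hfe, whose product binds the transferrin receptor and takes part in sensing iron, was at 19.2, 20.8 and 14.7 TPM in Saline and 53.5, 38.8 and 27.0 TPM in CDDP hearts (log2 fold change 1.04, SE 0.23, adjusted p = 0.0110 by limma). Without STING, Hfe was at 18.9, 24.8 and 19.6 TPM without cisplatin and 30.6, 27.1 and 35.7 TPM with it, higher without overlap but not past the test (0.54, SE 0.23, adjusted p = 0.336).

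Of 21 tested genes of mitochondrial iron and iron-sulfur cluster assembly, 1 rose and 4 fell in CDDP against Saline, and 16 did not pass. Slc25a28, mitoferrin-2, which carries iron into mitochondria outside the red cell lineage (chromosome 19 from 43663801 to 43674881), was at 16.1, 23.7 and 14.3 TPM in Saline and 43.3, 43.3 and 48.6 TPM in CDDP hearts. It was at 16.96, 21.1 and 16.4 TPM in STING-/- and 33.5, 28.7 and 28.9 TPM in STING-/-+CDDP hearts. Cisplatin separated the hearts in both genotypes, and the CDDP hearts were above the STING-/-+CDDP hearts. Slc25a28 had a log2 fold change of 1.304 (SE 0.18, adjusted p = 0.00130 by limma) in CDDP against Saline, 0.72 (SE 0.18, adjusted p = 0.0974) in STING-/-+CDDP against STING-/- and -0.55 (SE 0.18, adjusted p = 0.133) in STING-/-+CDDP against CDDP. Among those that fell were Lyrm4, Glrx5 and Fdx1, with log2 fold changes of -0.64, -0.56 and -0.74 (SE 0.15, 0.17 and 0.23, adjusted p = 0.0149, 0.0386 and 0.0473 by limma). In STING-/-+CDDP against STING-/- their changes were -0.39, -0.18 and 0.10 and did not pass (adjusted p = 0.285, 0.683 and 0.885). Lyrm4 serves the desulfurase, Glrx5 the transfer of the cluster, and Fdx1 is a ferredoxin.

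Of 10 tested genes of iron uptake and transport in the cell, Steap3, the reductase that turns endosomal iron into its ferrous form, fell in CDDP against Saline, and 9 did not pass. Steap3 was at 19.2, 23.3 and 14.2 TPM in Saline and 7.96, 9.14 and 11.0 TPM in CDDP hearts, without overlap (-0.93, SE 0.20, adjusted p = 0.0102 by limma). In mice without STING it was at 16.1, 20.7 and 20.4 TPM without cisplatin and 13.9, 13.6 and 10.3 TPM with it, lower without overlap but not past the test (-0.57, SE 0.20, adjusted p = 0.236). Among the further mRNAs known to carry an iron-responsive element, Alas2 fell, while Epas1, Cdc14a and Cdc42bpa had log2 fold changes between -0.09 and 0.22 and did not pass. Among the wider-list genes named here, Alas1, Alas2, Uros, Abcb10, Clpx, Cp, Lyrm4, Cdc14a and Cdc42bpa overlap an annotated locus on the other strand. Lyrm4, Epas1 and Cdc42bpa overlap at least 1 on the same strand. Of the marker genes named, Actc1, Myh6, Ryr2, Nppa, Myl4, Csf1r and Mpo overlap a locus on the other strand, and Myh6, Tnni3, Ryr2, Csf1r and Mrc1 on the same strand. The levels of all these genes are uncertain to the extent that reads were shared.

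By group, the share that passed in CDDP against Saline was 10.0% for uptake and transport, 20.0% for storage, 18.2% for hepcidin and sensing, 22.2% for heme breakdown, 53.8% for heme synthesis and 23.8% for mitochondrial iron, beside 18.9% of all tested genes. The groups hold 5 to 21 genes, and the lists were chosen with results known. Nothing is read from these shares, near that background or far from it.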

How the data were processed

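RNA-seq of 12 hearts was used, with groups set by the genotype and treatment labels. The authors deposited TPM for each gene in each heart. Per the submitters' processing notes, fastp, HISAT, RSEM and GRCm38.p5 were used. Their versions, the annotation and the use of strand are not given in the sources used here. The columns of group means and gene length were not used. Depth is unknown, since TPM keep no read counts.

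Values were compared as log2(TPM + 1), with a pseudocount of 1, for the 13815 genes with at least 1 TPM in at least 3 hearts. A model with 1 coefficient per group was fitted to all 12 hearts with limma 3.58.1 in R 4.3.3 (eBayes with a trend, 8 residual degrees of freedom). Tests were two-sided with Benjamini-Hochberg adjustment, and the cutoff of the methods, 0.05, was kept. The median SE of a log2 fold change was 0.216. The procedure was tested on simulated data. All members passed the filter, so the exact permutation test planned for members under it was not used. For 3 hearts against 3 its smallest p is 0.10.

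The members and all gene lists were chosen with earlier results of these data known. The text names all 10 members, up to 6 genes of the wider list in each comparison (those past the threshold with the largest change), and the 5 genes most like Tfrc and most like Slc40a1. Steap3, Hfe, Uros, Abcb10, Tmem14c, Slc25a38, Clpx, Lyrm4, Glrx5 and Fdx1, which also passed, were named after their values were seen, as were single marker genes. Some listed genes are counted but not reported here by name. Marker lists of cardiomyocytes, atrial cardiomyocytes, red blood cells, macrophages and neutrophils were summed per heart. UTRs were taken from GENCODE M21. The settings tried in turn were a pseudocount of 0.1, all genes without the filter, a minimum of 5 TPM, a fit of only the groups compared, scaling by the median of ratios, removal of mitochondrially encoded genes from the TPM, a sum of the ferritin copies, a block for the replicate number, and leaving out each heart. An atrial covariate was chosen later, with the values known. The figures used matplotlib 3.10.9.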

Additional observations from a re-analysis of the deposited data

How the results depend on the processing

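Over 58 results for single genes and 1208 alternative values, 1110 kept their direction and side of the threshold, 43 lost the threshold, 8 gained it and 47 changed sign, while 42 results changed sign under none of the alternatives. The cause was not tested. In CDDP against Saline the members past the threshold were 2, and 2 to 4 with a heart left out. They were 3, with Ftl1 in addition, with the median of ratios, without mitochondrially encoded genes or with the replicate block. The wider list had 18, but 5 when only the groups compared were fitted, 24 with the median of ratios and 23 without mitochondrially encoded genes. With a heart left out it had 9 (without the first Saline heart) to 16. In STING-/-+CDDP against STING-/- the members went from 1 to 0 without the filter, and to 0 to 1 with a heart left out. The wider list there went from 1 to 0 without the filter, 2 with only the groups compared, 3 with the median of ratios, 3 without mitochondrially encoded genes and 3 with the atrial covariate, which was chosen after seeing the data, and to 0 to 2 with a heart left out. In STING-/-+CDDP against CDDP the wider list went from 1 to 0 without the filter, 2 with the median of ratios and 0 to 2 with a heart left out. In STING-/- against Saline the members were 0 to 1 with a heart left out, the 1 being Hamp without the second Saline heart.

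Signs changed for results between -0.36 and 0.17 on the log2 scale. With a heart left out, in CDDP against Saline Slc40a1 ran from -0.44 to 0.33, Slc11a2 from -0.28 to 0.0048, Ireb2 from -0.12 to 0.11 and Ncoa4 from -0.019 to 0.42. Ncoa4 ran from -0.37 to 0.00078 in STING-/-+CDDP against STING-/-, and in STING-/-+CDDP against CDDP Slc11a2 ran from -0.23 to 0.065 and Aco1 from -0.13 to 0.10. In STING-/- against Saline the ranges were -0.45 to 0.70 for Tfrc, -0.019 to 0.15 for Fth1, -0.13 to 0.21 for Ftl1, -0.11 to 0.11 for Aco1, -0.088 to 0.055 for Ireb2 and -0.041 to 0.40 for Ncoa4, and for the interaction they were -0.85 to 0.31 for Tfrc and -0.16 to 0.088 for Aco1. The atrial covariate gave -0.072 for Ireb2 and -0.089 for Ncoa4 in CDDP against Saline, 0.0084 for Ncoa4 in STING-/-+CDDP against STING-/-, 0.015 for Aco1 in STING-/-+CDDP against CDDP, -0.15 for Ftl1, -0.076 for Aco1 and -0.20 for Ncoa4 in STING-/- against Saline, and 0.091 for Aco1 and 0.098 for Ncoa4 in the interaction. Without mitochondrially encoded genes Ireb2 was -0.0036 in CDDP against Saline and 0.021 in STING-/- against Saline, and Aco1 was 0.052 in STING-/-+CDDP against CDDP. Scaling by the median of ratios gave 0.00048 for Slc11a2 and 0.094 for Aco1 in STING-/-+CDDP against CDDP and 0.071 for Aco1 in the interaction.

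Over all tested genes, 2610 passed in CDDP against Saline, but 913 with only the groups compared, 3810 with the median of ratios and 3227 without mitochondrially encoded genes. In STING-/-+CDDP against STING-/- 129 passed, but 46 without the filter, 349 with only the groups compared or 251 with the median of ratios. In STING-/-+CDDP against CDDP 168 passed, but 12, 60 or 651 in the same order, with 287 without mitochondrially encoded genes and 390 with the atrial covariate. With the median of ratios the higher share of those calls went from 27.1% to 51.0% in the second and from 29.8% to 42.2% in the third, as the median of all genes moved up by 0.11 and 0.098. With a heart left out, CDDP against Saline fell to 1241 without the first and 1734 without the third Saline heart. STING-/-+CDDP against STING-/- ran from 18 to 204, with 18 to 48 without any 1 of its 6 hearts and 204 without the first CDDP heart. STING-/-+CDDP against CDDP ran from 11, without the second STING-/-+CDDP heart, to 380, without the second CDDP heart. STING-/- against Saline ran from 3 to 14 and the interaction from 0 to 12 (1 as reported, 3 with the median of ratios). The replicate number as a block gave 2175, 114 and 67 genes, and 5 in place of 10 in STING-/- against Saline. The labels do not tie hearts with the same number, and their deviations from the group means correlated above 0.1 in 4 of 18 pairs (range -0.333 to 0.261). Hearts with different numbers were not compared in this way, so these values cannot decide whether the numbers pair the hearts. The block took the wider list in CDDP against Saline from 18 to 12. Among the results for single genes it changed 3 calls, all in that comparison: Ftl1 passed (adjusted p = 0.0287 by limma), and Hp (0.0562) and Cp (0.0606) did not. The unknown depth of the hearts sets no limit that could be computed.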
